A study of Mus musculus with 35 samples.

Results

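H3K27me3, the trimethyl mark on lysine 27 of histone H3, was compared between cranial neural crest of female Utx knockout embryos (fko) and of wild-type embryos (wt) on the 19 autosomes. The members are the broad H3K27me3 peaks deposited for the 2 genotypes on chromosomes 1 to 19. A wt and a fko peak that overlapped by at least 1 bp were joined into 1 region, and the region was read from its longest peak. This gave 19104 autosomal regions out of 22552 on all chromosomes, made from 34080 of 37812 deposited peaks.

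The cells were cranial neural crest of embryos at stage E12.5, sorted as live Tomato-positive cells from embryos carrying Wnt1-Cre and the Rosa-Tomato reporter. Wild-type embryos were male and carried Wnt1-Cre, fko embryos were Utx fl/fl, Wnt1-Cre females, and mko embryos were Utx fl/y, Wnt1-Cre males. All 3 groups therefore carried the Cre driver, which acts in the neural crest and in the dorsal neural tube. Chromatin of frozen cell pellets, not fixed, was cut with micrococcal nuclease and pulled down with 1 H3K27me3 antibody, giving 3 wt, 3 fko and 1 mko library. By the labels, sex differs between wt and fko in every library, so sex and the loss of UTX cannot be told apart in this comparison. The single mko library, male and knockout, is set beside each main result as a value with no test. UTX peaks used below come from 1 library of O9-1 cells, a cultured line labelled E8.5.

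As background, H3K27me3 is written by Polycomb repressive complex 2, whose catalytic subunits are Ezh2 and Ezh1, and it marks genes that are kept silent, above all developmental regulators in cells that do not use them. UTX, encoded by the X-linked gene Kdm6a, and its relative Kdm6b are demethylases that can remove the mark, and UTX is also a subunit of complexes that place methylation on lysine 4 of histone H3. H3K4me3, the trimethyl form, marks promoters, and a promoter that carries both marks is called bivalent. Uty is the Y-linked relative of UTX and has little demethylase activity.

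Counts in the autosomal regions ranged from 7701412 to 9296156 per library. Libraries of 1 genotype were almost as alike as repeated sampling of 1 pool would make them. The chi-square statistic per degree of freedom, which is 1 for sampling noise alone, was 1.061 to 1.149 between wt libraries and 1.054 to 1.18 between fko libraries. Each of these pairs still differed by more than sampling noise, so all 6 libraries were kept as replicates. Between wt and fko libraries the statistic was 3.726 to 4.431, between wt and mko 2.485 to 2.564, and between fko and mko 1.939 to 2.121. The labels do not say that the 3 libraries of a genotype came from separate embryos or pools, so every p-value below measures only the small spread between these libraries, which may be technical.

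**Figure D1:**
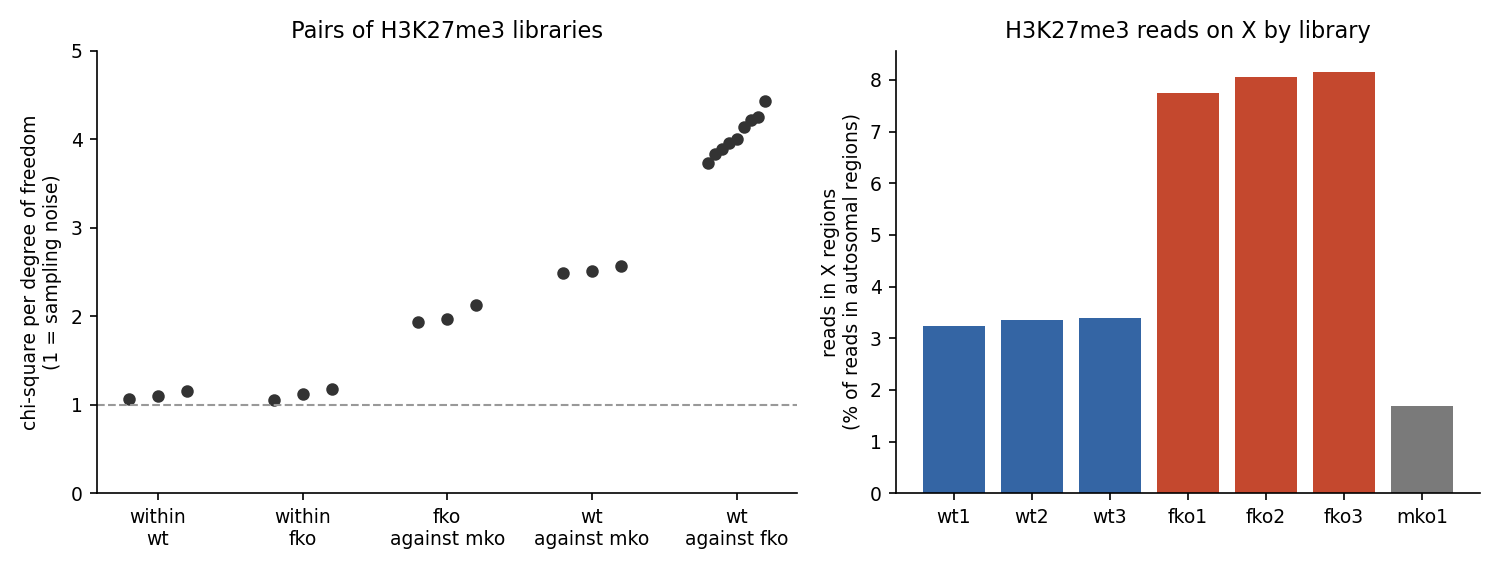
Left, chi-square per degree of freedom over the autosomal H3K27me3 regions for each pair of libraries, 1 point per pair, with the dashed line at the value that sampling noise alone would give; pairs of the same genotype sit at 1.054 to 1.18 and wt against fko pairs at 3.726 to 4.431. Right, reads in H3K27me3 regions on X as a percent of reads in autosomal regions, 1 bar per library; the wt bars lie between those of the mko and the fko libraries.

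X-linked H3K27me3 did not follow the labels fully. Counts on X came to 3.227%, 3.362% and 3.397% of the autosomal counts in the wt libraries and to 7.748%, 8.061% and 8.158% in the fko libraries. The mko library, labelled male as the wt libraries are, had 1.684%. Over the 3204 X regions called only in fko, the wt libraries held 17354.8 to 18706.1 counts per 1000000 autosomal counts, against 5832.03 in mko and 51255.4 to 54681.4 in fko. In the H3K4me3 libraries of the same labels, reads on Y ranged from 157.212 to 165.596 per 1000000 autosomal counts in wt, were 176.995 in mko and at most 0.688701 in fko. The Y reads follow the labelled sexes in all 7 H3K4me3 libraries. The deposited H3K27me3 regions hold 0 counts on Y in every library, of either sex, so they give no such check of the wt H3K27me3 libraries, and whether these hold some female cells was not tested. The part of the X signal of the wt H3K27me3 libraries in the autosomal results was not tested.

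The whole-transcript RNA of the labelled cells was that of neural crest and its mesenchyme. The summed level of 11 markers of these cells, Sox10, Twist1 and Prrx1 among them, was 1660 to 2140 counts per 1000000 counts of the library (CPM) in all 6 RNA libraries. Markers of epithelium summed to 12.4 and 8.96 CPM in wt and 10.9 and 12 CPM in fko, and those of endothelium, blood and skeletal muscle to no more than 10.7 CPM in any library; Hba-a1, a haemoglobin gene, was at 0 in the blood list. The 5 central nervous system markers summed to 109 and 147 CPM in wt, 57.0 and 80.8 CPM in fko, and 60.6 and 92.7 CPM in mko, and 3 of the 5 were lower in fko by edgeR, against 119 of 14521 genes tested (0.82%). Fewer cells of a type and less RNA per cell cannot be told apart in such bulk libraries, and the part of these cells in the H3K27me3 differences was not tested.

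The autosomal H3K27me3 landscape was largely shared by the 2 genotypes. Of the 19104 regions, 14059 had a peak in both, 2928 only in wt and 2117 only in fko. Most of the shared regions, 13254, were made of 1 peak of each genotype, and 805 joined 3 or more. The median width was 2054 bp, with the 10th percentile at 571 bp and the 90th at 7644 bp. The widest spanned 230775 bp, and all regions together covered 68.9 Mb. The 17379 wt peaks covered 63.6 Mb and the 16701 fko peaks 60.4 Mb, with median widths of 2102 and 2119 bp, as called by the authors on pooled libraries.

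H3K27me3 changed in both directions in fko, mostly by little. Of 18934 regions with enough counts to test, 5189 differed between fko and wt at an adjusted p under 0.05 (edgeR's quasi-likelihood test, Benjamini-Hochberg over all regions tested), or 27.4%. The 170 regions left out by the count filter were all under 2 kb wide. Levels were higher in fko in 2893 regions (15.3%) and lower in 2296 (12.1%). The median log2 fold change over all tested regions was 0.0048, with the 25th percentile at -0.198 and the 75th at 0.185. Among the regions called higher the median log2 fold change was 0.346, and among those called lower it was -0.375. A change of at least 1.5-fold was fitted in 606 of the regions called higher (3.2% of those tested) and 569 of those called lower (3.01%). At least 2-fold was reached by 100 regions upward (0.528%) and 140 downward (0.739%). Regions with a peak in both genotypes made up 278 and 148 of those at 1.5-fold, and 21 and 17 of those at 2-fold. The rest had a peak in 1 genotype only, and that choice fixes their direction.

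The 3 wt and 3 fko values did not overlap in 7424 tested regions, or 39.2%. They did not overlap in 2696 of the 2893 regions called higher and in 2095 of the 2296 called lower. Tests that asked whether the change exceeded a minimum, added after the small spread between libraries was seen, left far fewer regions. Against a minimum of 1.2-fold, 998 regions passed, 604 higher and 394 lower, and against 1.5-fold 117 passed, 61 higher and 56 lower. DESeq2 called 2576 regions, 1521 higher and 1055 lower.

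The split between higher and lower turned on how libraries were scaled. With TMM factors, which assume that most regions do not change, 55.8% of the calls were higher. With no such factor, dividing only by the autosomal counts, 2066 regions were higher and 3282 lower, so that 38.6% of the calls were higher, and the median over all regions moved to -0.0495. With TMM factors from regions called in both genotypes, 50.2% were higher, and with factors from the top signal quartile 48.4%. No spike-in or other outside standard is named in the sources used here, so the counts carry the distribution of the mark over regions and not its total amount.

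In the mko library the called regions lay between the 2 other groups as a sum. The 2893 regions called higher summed to 453500, 444600 and 443800 CPM in wt, 510500, 497000 and 493900 CPM in fko, and 482900 CPM in mko. The 2296 regions called lower summed to 108500, 107100 and 106800 CPM in wt, 90270, 89690 and 89220 CPM in fko, and 98520 CPM in mko. The wt and fko sums differ because these libraries chose the regions. The mko value had no part in that choice, but with 1 library it has no error.

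Width set regions apart. Among the 1137 regions of 10 kb or more, 504 (44.3%) were higher in fko and 116 (10.2%) lower, against 15.3% and 12.1% over all tested regions, so that 81.3% of their calls were higher. Regions of 5 to 10 kb were higher in 682 of 2712 (25.1%) and lower in 530 (19.5%). Those of 2 to 5 kb were higher in 1077 of 5886 (18.3%) and lower in 972 (16.5%). Under 2 kb, 630 of 9199 tested regions were higher (6.85%) and 678 lower (7.37%). Among those under 2 kb with a peak in both genotypes, 280 of 4614 were higher (6.07%) and 237 lower (5.14%). Wider regions hold more counts, with a median of 2200 per library at 10 kb or more, so that smaller changes can pass the test in them.

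Among called regions the fold change was smaller in wider regions, and this order is not read as a result. At low counts, with a median of 28.67 per library under 2 kb, only large changes can be called. The median log2 fold change of regions called higher was 0.658 under 2 kb, 0.382 at 2 to 5 kb, 0.23 at 5 to 10 kb and 0.131 at 10 kb or more. At least 1.5-fold was reached by 5 higher and 4 lower regions among those of 10 kb or more. Over all tested regions of a class, called or not, the median log2 fold change was -0.0315 under 2 kb, -0.001 at 2 to 5 kb, 0.02 at 5 to 10 kb and 0.0705 at 10 kb or more. Among regions with a peak in both genotypes, the median was -0.0019 under 2 kb and 0.0009 at 2 to 5 kb. All tested regions of 5 kb or more were of that kind. Regions of 10 kb or more thus lay 0.0657 above the median of all regions on the log2 scale. That distance was 0.0652 without TMM factors, where 336 of them were higher and 236 lower (58.7% higher), since scaling shifts every region alike.

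The result also moved with the peak borders. Of the regions of 10 kb or more, 759 were read from a wt peak and 378 from a fko peak. With only the peaks called in wt, 588 of 1046 peaks of 10 kb or more were higher and 89 lower (86.9% of calls higher), and their median lay 0.114 above that of all wt peaks. With only the peaks called in fko, 230 of 986 were higher and 151 lower (60.4% higher), and the median lay 0.0098 above that of all fko peaks.

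Shares of reads over the same merged regions showed a small shift toward wide ones. These shares rest on the same borders, mostly of wt peaks, and were not read with the peaks of 1 genotype only. Regions of 10 kb or more held 53.27%, 53.11% and 53.14% of the autosomal H3K27me3 counts in wt and 54.46%, 53.90% and 53.80% in fko. All 3 fko libraries were above all 3 wt libraries, by 0.88 percentage points between the means, and the mko library had 53.70%. An exact two-sided permutation test gave p = 0.1, the smallest that 3 libraries against 3 allow. The share in regions of 2 to 5 kb differed by -0.416 percentage points (fko minus wt) and that in regions of 5 to 10 kb by -0.311, each without overlap and each with an exact permutation p = 0.1. The class of 5 to 10 kb includes 1 very strong chromosome 17 region described below, which rose in fko, and its share without that region was not computed. Under 2 kb the libraries overlapped, with a difference of -0.152 percentage points and an exact permutation p = 0.2.

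**Figure D2:**
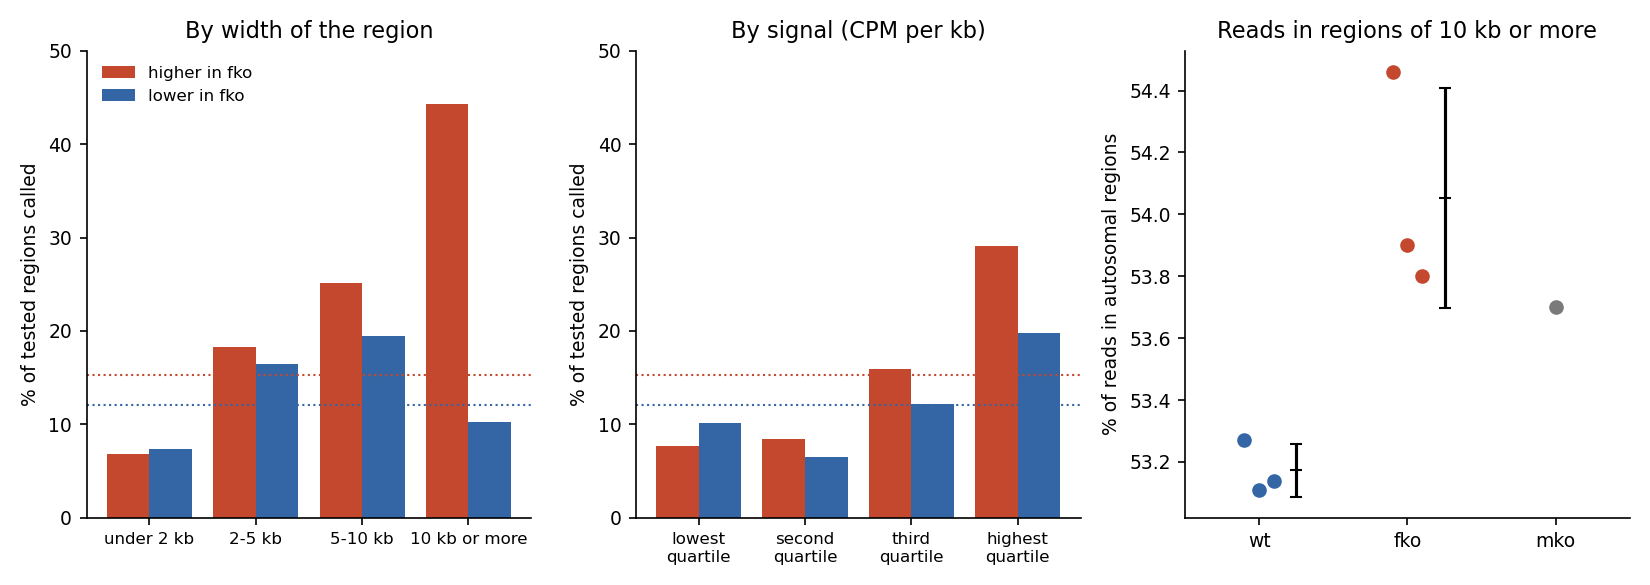
Percent of tested H3K27me3 regions called higher (red) or lower (blue) in fko, by width (left) and by quartile of signal in CPM per kb (middle), with dotted lines at the share over all tested regions; 44.3% of regions of 10 kb or more were higher and 10.2% lower. Right, percent of autosomal reads in regions of 10 kb or more, 1 point per library with mean and SD for wt and fko, on an axis that does not start at 0; the 3 fko points lie above the 3 wt points.

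Signal, taken as mean CPM per kb over the 6 libraries, gave a weaker ordering. In the quartile with the lowest signal 364 of 4734 regions were higher (7.69%) and 477 lower (10.1%), with a median log2 fold change of -0.0635. In the second quartile 401 were higher and 307 lower, and in the third 752 and 577. In the quartile with the highest signal 1376 of 4734 were higher (29.1%) and 935 lower (19.8%), with a median of 0.0241. This quartile held 86.27%, 85.84% and 85.74% of the counts in wt and 86.60%, 86.22% and 86.00% in fko. The libraries overlapped in all 4 quartiles, with exact permutation p-values of 0.2 to 0.5. The highest quartile also includes the very strong chromosome 17 region. Neither width nor signal is independent of the libraries compared, since both were read from the same peaks and counts.

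Regions called as a peak in 1 genotype only followed that genotype, as their choice fixes. Of those with a peak only in wt, 519 were lower and 1 higher, and of those with a peak only in fko, 407 were higher and 0 lower. Nothing is read from these directions. Regions with a peak in both genotypes gave 2485 higher and 1777 lower calls.

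The autosomes differed modestly in their calls. Chromosome 4 had the highest share of regions called higher, 19.4%, with 262 higher and 146 lower. Chromosome 17 had the highest share called lower, 18.9%, with 118 higher and 139 lower, and the highest share called at all, 35%. Chromosomes 7 and 16 were the other autosomes with more lower than higher calls, 163 against 159 and 81 against 69. The lowest share called was 22.3%, on chromosome 3.

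Shares of reads by whole chromosome, with every region included, moved by at most 0.15 percentage points. Chromosome 4 held 7.084%, 7.071% and 7.057% of the autosomal counts in wt and 7.208%, 7.239% and 7.214% in fko, with 7.126% in mko. Chromosome 7 fell from 6.533%, 6.523% and 6.477% to 6.381%, 6.403% and 6.396%, with 6.453% in mko. The fko libraries were above the wt libraries without overlap on 7 autosomes and below them on 8, and overlapped on 4. Each of the 15 had an exact two-sided permutation p = 0.1, or 0.127 after Benjamini-Hochberg adjustment over the 19 autosomes, so none passed 0.05 and none could at this number of libraries. Chromosome 17 overlapped, at 4.526%, 4.481% and 4.477% in wt and 4.482%, 4.515% and 4.514% in fko. Its share includes 1 very strong region described below, at 9350 to 9950 CPM in wt and 11700 to 11800 CPM in fko. The share of chromosome 17 without that region was not computed. Since that region rose in fko, the overlap does not show that the rest of the chromosome kept its share.

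Calls were spread over nearly the whole autosomal genome. Of 433 windows of 5 Mb with at least 10 tested regions, the median window had 13.3% of its regions higher and 10.6% lower. The window with the most lower calls was chromosome 17 from 35 to 40 Mb, in coordinates of the mm9 mouse genome build that the deposited tables use. There 33 of 54 tested regions were lower (61.1%) and 8 higher. The 33 lower regions ran from chr17:35092014 to 37338419 and summed to 3346, 3249 and 3234 CPM in wt, 2085, 2109 and 2104 CPM in fko, and 2875 CPM in mko. The window's total was not lower, at 13380 to 14100 CPM in wt and 14730 to 14820 CPM in fko, since 1 very strong region described below made up most of it.

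The most higher calls, 36 each, fell in chromosome 15 from 80 to 85 Mb, among 105 tested regions, and in chromosome 4 from 135 to 140 Mb, among 99. Each window also had 5 lower calls. The 36 higher regions on chromosome 15 summed to 1185, 1152 and 1140 CPM in wt and 1433, 1405 and 1445 CPM in fko, with 1296 CPM in mko. Those on chromosome 4 summed to 4003, 3866 and 3855 CPM in wt and 4709, 4637 and 4613 CPM in fko, with 4357 CPM in mko.

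Windows of mostly lower calls were rare. Lower calls made up 50% or more of the tested regions in 5 of the 433 windows, and higher calls in 0. Chromosome 13 from 20 to 25 Mb, singled out after its values were seen, had 23 lower and no higher calls among 45 tested regions. Its lower regions ran from chr13:21249582 to 24372080 and summed to 2860, 2824 and 2872 CPM in wt against 2541, 2493 and 2426 CPM in fko, with 2634 CPM in mko, and 21 of the 23 overlapped an H3K4me3 region. Chromosome 7 from 50 to 55 Mb, also singled out afterwards, had 26 lower and 4 higher calls among 76 regions.

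**Figure D3:**
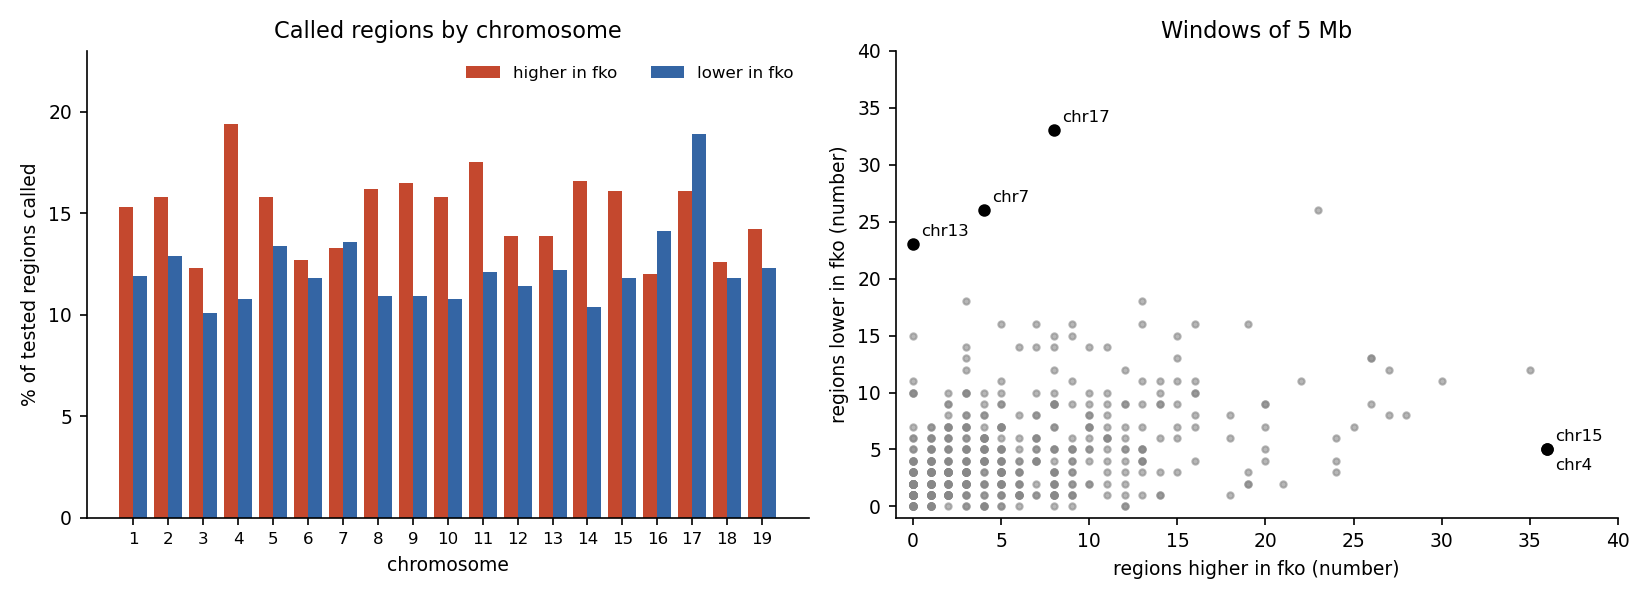
Left, percent of tested H3K27me3 regions higher (red) or lower (blue) in fko on each autosome; chromosome 4 has the tallest red bar and chromosome 17 the tallest blue bar. Right, number of regions higher against number lower in each window of 5 Mb, 1 point per window; black points mark windows named in the text, with the chromosome 17 window at 8 higher and 33 lower and the chromosome 15 and 4 windows on the same point at 36 higher and 5 lower.

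The regions with the smallest p-values were taken from called regions whose wt and fko values did not overlap, so that rule fixed their separation. These regions are named by mm9 position only, because the tables carry no gene names and no annotation of that build was used here. The region called higher with the smallest p, chr17:35833772-35842391, was 8.62 kb wide. It had 16.5, 16 and 14.1 CPM in wt and 85.9, 82.5 and 78.4 CPM in fko, with 41.9 CPM in mko. The log2 fold change was 2.41 with a standard error of 0.0699 (edgeR adjusted p = 1.48e-253), and its lowest fko value was well above its highest wt value. H3K4me3 is given for each named region from the strongest tested H3K4me3 region that overlaps it. This region overlapped a UTX peak, and its H3K4me3, at 125 to 128 CPM in wt and 113 to 119 CPM in fko, was called lower, by -0.12 on the log2 scale (edgeR adjusted p = 0.0315).

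The next in order, chr11:117748577-117753416, had 25.0, 22.4 and 24.7 CPM in wt, 87.2, 82.0 and 77.9 CPM in fko, and 52.7 CPM in mko. It rose by 1.78 on the log2 scale, while the 1 H3K4me3 region on it was not called (-0.05). A wider region, chr12:110682117-110700556, had 199, 187 and 193 CPM in wt, 336, 329 and 325 CPM in fko, and 272 CPM in mko, a log2 fold change of 0.77. Similar in width and size was chr1:75440991-75457118, at 225 to 234 CPM in wt, 362 to 369 CPM in fko and 307 CPM in mko. In all 4 the mko value lay between the wt and fko values.

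The other 6 higher regions of this set had log2 fold changes of 0.65 to 1.76. One of them, chr17:37277063-37279873, stood at 12.4, 9.45 and 8.48 CPM in wt and 35.1, 35 and 33.2 CPM in fko, with 18.2 CPM in mko, and the weak H3K4me3 on it was lower in fko (-0.88). On chr6:29381102-29387034 H3K27me3 rose by 0.96, from 48.0 to 56.5 CPM up to 99.3 to 106 CPM, while H3K4me3 fell by 0.46, from 82.2 to 84.0 CPM down to 58.0 to 65 CPM. The remaining 4 were chr6:48386994-48391444, chr2:26355495-26360934, chr2:121120083-121124627 and chr12:112719635-112728053, with changes of 1.09, 0.90, 1.07 and 0.65. Of the 10 higher regions, 5 overlapped a UTX peak, where 29.3% of all regions called higher and 18.7% of all tested regions did.

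Among the regions called lower, the smallest p belonged to chr17:36274830-36310359, 35.5 kb wide. It had 676, 649 and 645 CPM in wt, 286, 294 and 292 CPM in fko, and 543 CPM in mko, a log2 fold change of -1.18 with a standard error of 0.0297. The wt and fko values were far apart, with the mko value nearer to wt. The strongest of 4 H3K4me3 regions on it was weak and rose from 2.35 to 3.40 CPM in wt up to 6.19 to 7.85 CPM in fko, a log2 fold change of 1.22.

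Close by, chr17:36245296-36250911 fell the most of the named regions. It had 71.9, 66.1 and 64.9 CPM in wt, 14.8, 15.7 and 17.6 CPM in fko, and 33.1 CPM in mko, a log2 fold change of -2.08 (edgeR adjusted p = 7.41e-177). H3K4me3 moved the other way there, from 4.62, 3.57 and 4.14 CPM in wt to 14.6, 13.6 and 14.3 CPM in fko, with 16.6 CPM in mko. The region next to it, chr17:36255652-36261134, fell by 1.66, from 67.8 to 74.3 CPM down to at most 26.0 CPM, and the H3K4me3 on it was not called (0.23).

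Of the 10 lower regions, 8 were on chromosome 17, and 7 of these lay in the 35 to 40 Mb window. Besides those above they were chr17:36218676-36224885, chr17:36348390-36379083, chr17:35559521-35563701 and chr17:35575394-35577668 in the window, and chr17:47530865-47534070 outside it. Their log2 fold changes ran from -0.63 to -1.76. The other two were chr14:112072650-112082836 (-0.97) and chr16:91138123-91142792 (-0.85). None of the 10 overlapped a UTX peak, where 21.8% of all regions called lower did, and 7 of the 10 lie in 1 window. H3K4me3 was called higher on 7 of them and lower on 1, the chromosome 16 region (-0.56), and was not called on the other two; over all H3K4me3 regions 27.6% were called higher, and over those on H3K27me3 regions called lower 59.3%.

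The last of these regions was also the exception in the male knockout. On chr16:91138123-91142792 the wt libraries had 102, 103 and 99.0 CPM, the fko libraries 56.3, 56.5 and 56.1 CPM, and the mko library 39.7 CPM, below all 6. In the other 19 of the 20 regions the mko value lay between the wt and the fko values. It is 1 library, and mko and fko share the wt libraries, so no test was made.

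**Figure D4:**
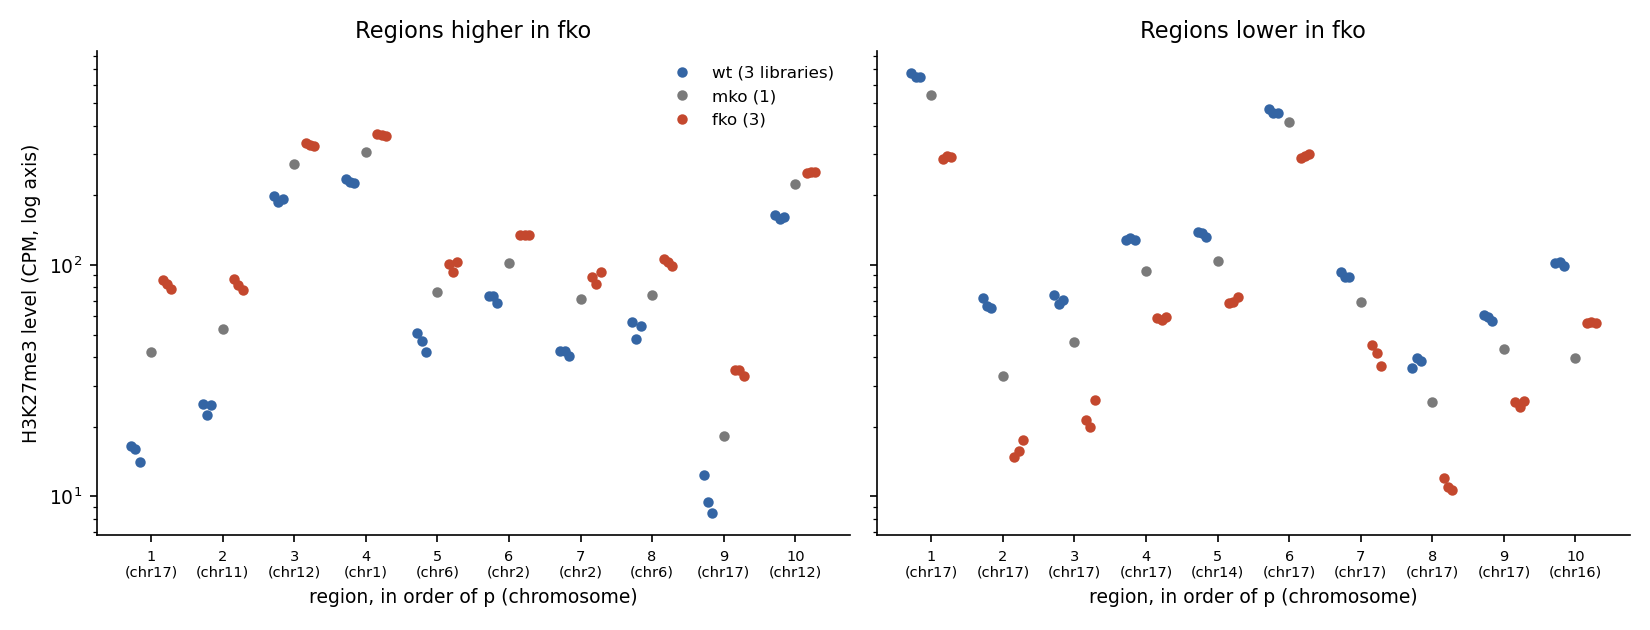
H3K27me3 level in CPM, on a log axis, for the 10 regions with the smallest p called higher (left) and the 10 called lower (right), 1 point per library with wt in blue, mko in grey and fko in red. The wt and fko points do not overlap in any region, by the rule that chose them, and the grey mko point lies between them in all but the tenth region on the right.

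The widest H3K27me3 regions gained a little signal in fko. The widest, chr15:102724817-102955591, was 231 kb wide and had 10800, 10600 and 10600 CPM in wt, 11600, 11300 and 11200 CPM in fko, and 11200 CPM in mko. Its log2 fold change was 0.10 with a standard error of 0.0258 (edgeR adjusted p = 0.00124). The other 4, chr6:52093197-52279094, chr11:96107247-96244913, chr2:74480229-74607603 and chr7:86637712-86754966, had log2 fold changes of 0.08 to 0.10, and all 5 were called higher. No wt value in these 5 regions reached the lowest fko value, yet the gain was 1.05-fold to 1.08-fold, and none of the 5 passed the test against a minimum of 1.2-fold. Without TMM factors the 5 were 0.02 to 0.05 higher on the log2 scale. The call on the chromosome 2 region was lost without wt replicate 2 (edgeR adjusted p = 0.0605). The calls on the chromosome 6 and chromosome 7 regions were each lost without wt replicate 2, wt replicate 3 or fko replicate 2, with edgeR adjusted p-values of 0.0502 to 0.0777 and 0.0652 to 0.123.

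The region with the most counts per length was chr17:39979807-39985936, which had 1740 CPM per kb and stood far from the next, at 118 CPM per kb. No input library was set beside these counts, so how much of this signal is the mark was not tested. The region had 9950, 9550 and 9350 CPM in wt, 11800, 11700 and 11800 CPM in fko, and 10600 CPM in mko, a log2 fold change of 0.29. All 3 fko values were above all 3 wt values, and the change did not pass the test against a minimum of 1.2-fold. Of the others, chr15:98598692-98641471 (118 CPM per kb) had 4980, 4820 and 4720 CPM in wt and 5420, 5150 and 5200 CPM in fko, a log2 fold change of 0.12. chr7:138680543-138703262 and chr19:45292254-45321669 were 0.09 and 0.10 higher on the log2 scale, the former not called without wt replicate 2 (edgeR adjusted p = 0.0841), and the fifth was the wide chromosome 2 region named above.

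H3K27me3 regions that also carried H3K4me3 rose more often than those that did not. Of 12172 tested regions that overlapped an H3K4me3 region, 2529 were higher (20.8%) and 1612 lower (13.2%), with a median log2 fold change of 0.0321. Of 6762 without H3K4me3, 364 were higher (5.38%) and 684 lower (10.1%), with a median of -0.077. Many of these had a peak in 1 genotype only, which fixes their direction. H3K4me3 overlapped 23.7% of tested regions with a peak only in wt and 39.0% of those only in fko. Of regions with a peak in both, it overlapped 2306 of 2485 called higher (92.8%), 1493 of 1777 called lower (84.0%) and 70.5% of those not called. Regions without H3K4me3 were narrower and held fewer counts, with a median of 31.0 per library against 152.3. Under 2 kb the 4096 regions with H3K4me3 were higher in 10.2% and lower in 6.64%, and the 5103 without it were higher in 4.15% and lower in 7.96%, with median counts of 36.92 and 24.33. At 2 to 5 kb the shares were 21.4% and 16.7% with H3K4me3 and 8.52% and 15.9% without. Without TMM factors the 2 medians were -0.023 with H3K4me3 and -0.132 without. Scaling shifts every region alike, so their distance had to stay and is no check of the difference. Regions with H3K4me3 were then higher in 14.8% and lower in 19.3%.

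UTX binding, mapped in 1 library of O9-1 cells, a cultured mouse cranial neural crest line that was fixed first, showed a smaller difference. Of 3533 tested regions that overlapped a UTX peak, 848 were higher in fko (24%) and 500 lower (14.2%), and of 15401 without one, 2045 were higher (13.3%) and 1796 lower (11.7%). The regions with UTX were wider, with a median of 3599 bp against 1849 bp. Within the regions of 10 kb or more, 49.3% of the 458 with UTX and 40.9% of the 679 without were higher, and 10.0% and 10.3% lower. Within those under 2 kb, 9.89% of 1072 with UTX and 6.45% of 8127 without were higher. UTX was mapped in other cells, labelled E8.5, than the E12.5 cells in which H3K27me3 was measured, so overlap does not show binding in the sorted crest.

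H3K4me3 itself was read in its own 3 wt and 3 fko libraries, with 52160 autosomal regions tested. Over all of them 64.6% were called, 27.6% higher in fko and 37.0% lower. On H3K27me3 regions called lower, 1086 of 1831 H3K4me3 regions were higher (59.3%) and 171 lower (9.34%), with a median log2 fold change of 0.21. On H3K27me3 regions that were not called, 38.3% of 8924 were higher and 20.7% lower, with a median of 0.102. On H3K27me3 regions called higher, 34.1% of 3910 were higher and 19.1% lower, with a median of 0.089. Where H3K27me3 was lower, H3K4me3 was thus called higher in a larger share than elsewhere. That share was smaller on H3K27me3 regions lower by 1.5-fold or more, where 48.6% of 208 H3K4me3 regions were higher and 20.2% lower. On H3K27me3 regions higher by 1.5-fold or more, 21.1% of 474 were higher and 29.3% lower.

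Depth moved with these groups, since the median H3K4me3 count was 398.0 on H3K27me3 regions called lower, 157.5 on those called higher, 170.7 on those not called and 57.67 over all. Among H3K4me3 regions with a mean count of at least 200, a limit set after these depths were seen, 72.9% of all were higher. The share was 80.1% on H3K27me3 regions called lower, 68.6% on those not called and 57.3% on those called higher. The split of H3K4me3 calls was sensitive to scaling and tool, so the absolute shares carry little. DESeq2 called 14968 higher and 9514 lower, where edgeR called 14413 higher and 19285 lower. Without TMM factors 11.7% of all H3K4me3 regions were higher and 47.3% lower, and the medians were 0.036 on H3K27me3 regions called lower, -0.072 on those not called and -0.085 on those called higher. With DESeq2 they were 0.31, 0.204 and 0.191, in the same order. Scaling shifts all H3K4me3 regions about alike, so a change of scaling could hardly alter that order.

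**Figure D5:**
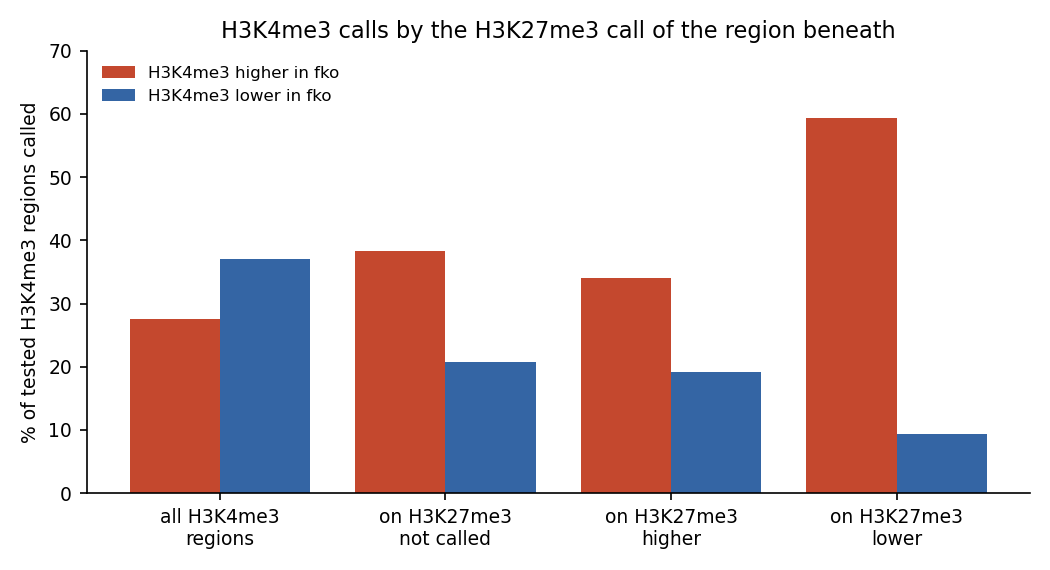
Percent of tested H3K4me3 regions called higher (red) or lower (blue) in fko, for all autosomal H3K4me3 regions and for those on H3K27me3 regions not called, called higher or called lower. On H3K27me3 regions called lower, 59.3% of H3K4me3 regions were higher, against 27.6% of all.

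Few differences in RNA were called among the genes that write, erase and read the mark. Of 25 such genes, all measured, 0 were higher in fko and 1 was lower by edgeR over 2 libraries per group, against 163 of 14521 genes tested (1.12%) in either direction. At an unadjusted p under 0.05 there were 4 of the 25, against 2845 of all genes tested (19.6%). The gene called was Uty, at 33.3 and 39.4 CPM in wt and 0.0 and 0.646 CPM in fko (edgeR adjusted p = 0.000846), a Y-linked gene that females do not have. Ezh2, the main methyltransferase of Polycomb repressive complex 2, had 204 and 204 CPM in wt and 190 and 189 CPM in fko, a log2 fold change of -0.10 (edgeR adjusted p = 0.64). Its core partner Eed had a log2 fold change of 0.12 and was not called. Suz12, the other core partner, had 83.1 and 106 CPM in wt and 73.4 and 84.8 CPM in fko, a log2 fold change of -0.26 that was not called (edgeR adjusted p = 0.367). With 2 libraries per group, changes of this size may go uncalled.

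Of the demethylases, Kdm6a, the gene deleted in the knockouts, had 45.6 and 51.5 CPM in wt, 52.9 and 62.4 CPM in fko, and 40.5 and 31.9 CPM in mko. Its counts cover the whole gene, and the labels do not give the floxed part, so they do not check the deletion. Kdm6b had 199 and 263 CPM in wt, 146 and 183 CPM in fko, and 166 and 148 CPM in mko, a log2 fold change of -0.49 (edgeR adjusted p = 0.204). All 4 knockout values were below both wt values. Among the readers, Cbx2, a subunit of Polycomb repressive complex 1, had 129 and 135 CPM in wt and 161 and 134 CPM in fko, and Rnf2, its ubiquitin ligase, 129 and 158 against 133 and 151 CPM, and in both genes the groups overlapped.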

How the data were processed

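The authors' deposited histone tables hold raw read counts for every MACS2 broad peak called on pooled libraries of wt and of fko, in each of 7 libraries; the deposited RNA table holds unnormalised counts per gene. Per the submitters' processing notes the tools were MACS2, bedtools, HTSeq, SAMtools, Bowtie2, TopHat2 and Trimmomatic, with no versions, on build mm9. A read in overlapping wt and fko peaks is in both counts, so such peaks were joined. The members and lists were chosen with earlier results of these data known.

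Counts were tested in edgeR 4.0.16 (R 4.3.3) with TMM factors, filterByExpr and the quasi-likelihood F test, Benjamini-Hochberg adjusted over all regions tested (threshold 0.05), wt against fko without mko; RNA of all 6 libraries was fitted in 1 model. CPM values are counts per 1000000 of the TMM-scaled library. Shares of reads were compared by exact permutation. Alternatives used DESeq2 1.42.0, limma-voom 3.58.1, other scalings, other peak sets, no filter, a replicate block and each library left out. Code was tested on simulated counts. Named regions were the 10 smallest p in each direction with no overlap of wt and fko, the 5 widest, the 5 of at least 2 kb with the highest signal, and the 5 Mb window with the most calls in each direction; chromosome 18 was counted but not named.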

Additional observations from a re-analysis of the deposited data

Results flagged for a closer look

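H3K27me3 counts on X lie outside the autosomal comparison and stood above the wild-type level: the lowest fko library had X counts of 7.748% of its autosomal counts, against at most 3.397% in wt and 1.684% in mko. Females inactivate 1 X chromosome, which carries H3K27me3, as background. The wt libraries also lay above the mko library although both are labelled male, and the bearing of this on the autosomal calls was not tested.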

How the results depend on the processing

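The number of regions called depended on the test. Testing every deposited peak without merging called 8729 (4701 higher, 4028 lower), DESeq2 2576 (1521 and 1055), a minimum change of 1.2-fold 998 (604 and 394) and of 1.5-fold 117 (61 and 56). With 1 library left out the count was 4187 to 4567, with 2275 to 2592 higher and 1811 to 1975 lower. For H3K4me3, edgeR called 14413 higher and 19285 lower, no TMM gave 6127 and 24669, DESeq2 turned the balance with 14968 and 9514, and with 1 library left out 28252 to 32910 were called.

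The percent of calls that were higher was 55.8 over all widths, and became 53.9 unmerged, 59.9 with wt peaks only, 47.8 with fko peaks only, 59.0 with DESeq2, 38.6 without TMM, 50.2 and 48.4 with TMM from shared regions and from the top signal quartile, 60.5 and 52.1 with minima of 1.2-fold and 1.5-fold, and 54.3 to 57.5 with 1 library left out. For 10 kb or more it was 81.3, and became 86.9 with wt peaks, 60.4 with fko peaks, 58.7 without TMM, 75.3 and 73.1 with the other TMM sets, 69.6 and 50 with the minima, and 79.7 to 83.5 with 1 library left out. Under 2 kb it was 48.2, and became 41.0 with wt peaks, 57.4 with fko peaks, 53.9 with DESeq2, 34.3 without TMM, 43.6 and 41.9 with the other TMM sets, 20.6 with the 1.5-fold minimum, and 46.6 to 51.8 with 1 library left out, the highest without fko replicate 1. Among regions under 2 kb with a peak in both genotypes, 54.2 percent of the calls were higher. The cause of these shifts was not tested beyond what each setting changes. The gain in read share of regions of 10 kb or more stayed between 0.675 and 1.01 percentage points with 1 library left out. It was not read with wt peaks only or fko peaks only.

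No named region changed direction under any alternative run: of 522 readings, 492 kept their side of the threshold and 30 lost the call. Most named regions were chosen for a small p without overlap, so a kept direction says little. In the runs on peaks of 1 genotype each was read only from its own longest peak, so other borders were not tried. Replicate numbers did not pair the H3K27me3 libraries (correlations of deviations -0.00649, -0.00502 and 0.0158), and of the H3K4me3 pairs 1 of 3 passed 0.1 (0.105, 0.0125 and 0.0111). RNA wt1 and fko1 deviated together (0.426), 1 pair that does not settle pairing. A replicate block gave 5363 calls (3018 higher, 2345 lower), 34841 for H3K4me3, and 1 gene of the RNA list, and changed no direction. Depth limits narrow regions: the median region under 2 kb held 28.67 counts per library.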
